A study of Mus musculus with 9 samples.

Results

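Keratins are the intermediate filament proteins of epithelial cells, and 51 keratin genes were found in the uterus libraries of a mouse study of bisphenol exposure. They were chosen by name, as every symbol made of Krt, a number and at most 1 further letter, out of 34745 lines per file. Wild-type females of the outbred stock CD-1 (ICR), bought at 7 to 8 weeks of age, received bisphenol B (BPB), bisphenol AF (BPAF) or, as control, pure corn oil by gavage for 28 days. The daily dose of each bisphenol was 300 µg per kg of body weight, and all groups had estrogen-free food. Messenger RNA isolated from the uterus was sequenced in 3 libraries per group, 9 in all, and the estrous stage is not in the labels, nor whether a library is 1 animal. P-values therefore measure the spread between these libraries. BPB and BPAF are replacements for bisphenol A: the carbon between the phenol rings bears methyl and ethyl in BPB and a pair of trifluoromethyl groups in BPAF.

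A keratin filament is built from obligate pairs of a type I and a type II keratin, and each epithelium is known for its own pairs. Simple epithelia such as the uterine lining use Krt8 with Krt18 and Krt19, and often Krt7. The basal layer of stratified epithelia uses Krt5 with Krt14 or Krt15, layers above it switch to pairs such as Krt4 with Krt13 or Krt1 with Krt10, and Krt6a, Krt6b, Krt16 and Krt17 are known from wounded or activated epithelium. In the urothelium, the lining of the bladder, Krt5 marks basal cells and Krt20 the umbrella cells at the surface. The mouse type I genes lie on chromosome 11, where 27 of the 51 members are, and the type II genes with Krt18 lie on chromosome 15, where the other 24 are (GENCODE M21).

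Levels are in FPKM, which scales reads by gene length and library size. Levels can be set side by side between genes as far as the gene lengths used by the authors hold. The libraries rested on 12620196 to 15616775 reads. The reads of the 51 keratins, as estimated from the values, made up 0.107% of a library in BPAF 3 to 0.381% in BPB 2. Keratins listed at 0 allow up to 3 reads, which in BPAF 3 is 0.102 FPKM of Krt5, and such limits cover counting error only. The uterine position genes Hoxa10 and Hoxa11 were above 11 FPKM in every library.

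A pair of libraries stood apart from the rest of their group in urothelial genes or in keratins of stratified epithelium. BPAF 1 correlated most closely with BPB 1 across the tested genes (Pearson r = 0.951 on the log2 scale), and no other pair of libraries was closer. It carried urothelial genes as the BPB libraries did: the 7 markers Upk1a, Upk1b, Upk2, Upk3a, Snx31, Psca and Gata3 summed to 1768 to 2900 FPKM in BPB, 1594 FPKM in BPAF 1, 4.88 and 10.9 FPKM in BPAF 2 and 3, and 2.68 to 6.94 FPKM in control. Upk3a, a uroplakin of the bladder surface, was listed at 0 in BPAF 2, BPAF 3 and all controls. Control 3 differed from controls 1 and 2 in keratins of stratified epithelium. It also differed library-wide, with an FPKM sum of 495778, against 279547 to 391700 in the other libraries. Genes at 1 FPKM or more numbered 11614 in control 3 and 12613 to 13105 in the others. Its median-ratio size factor was 0.725, against 0.921 to 1.12, and fits are unscaled except where median-ratio scaling is named. Results that rest on BPAF 1 or control 3 are given with and without them, except that of Krt20. Across the tested genes BPAF 3, too, correlated less with BPAF 1 and BPAF 2 (r = 0.861 and 0.856) than these did with each other (0.890). Most results are not given without BPAF 3. In RNA of a whole organ, fewer cells of a type and less RNA per cell cannot be told apart.

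Of the 51 keratins, 18 reached 1 FPKM in at least 3 libraries and were tested, 6 reached 1 FPKM in 1 or 2 libraries, 18 stayed above 0 but under 1 FPKM, and 9 were listed at 0 in every library. The tested members were all 6 keratins of simple epithelia, all 3 of the basal layer, 1 of 4 activation keratins, 5 of 13 suprabasal keratins and 3 of 23 keratins of hair and its root sheath. The summed keratin level was 1111, 1726 and 1682 FPKM in BPB, 1175, 1059 and 533 FPKM in BPAF, and 1224, 789 and 988 FPKM in control. These sums overlapped between the groups, while the members that made them up did not stay in proportion.

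**Figure D1:**
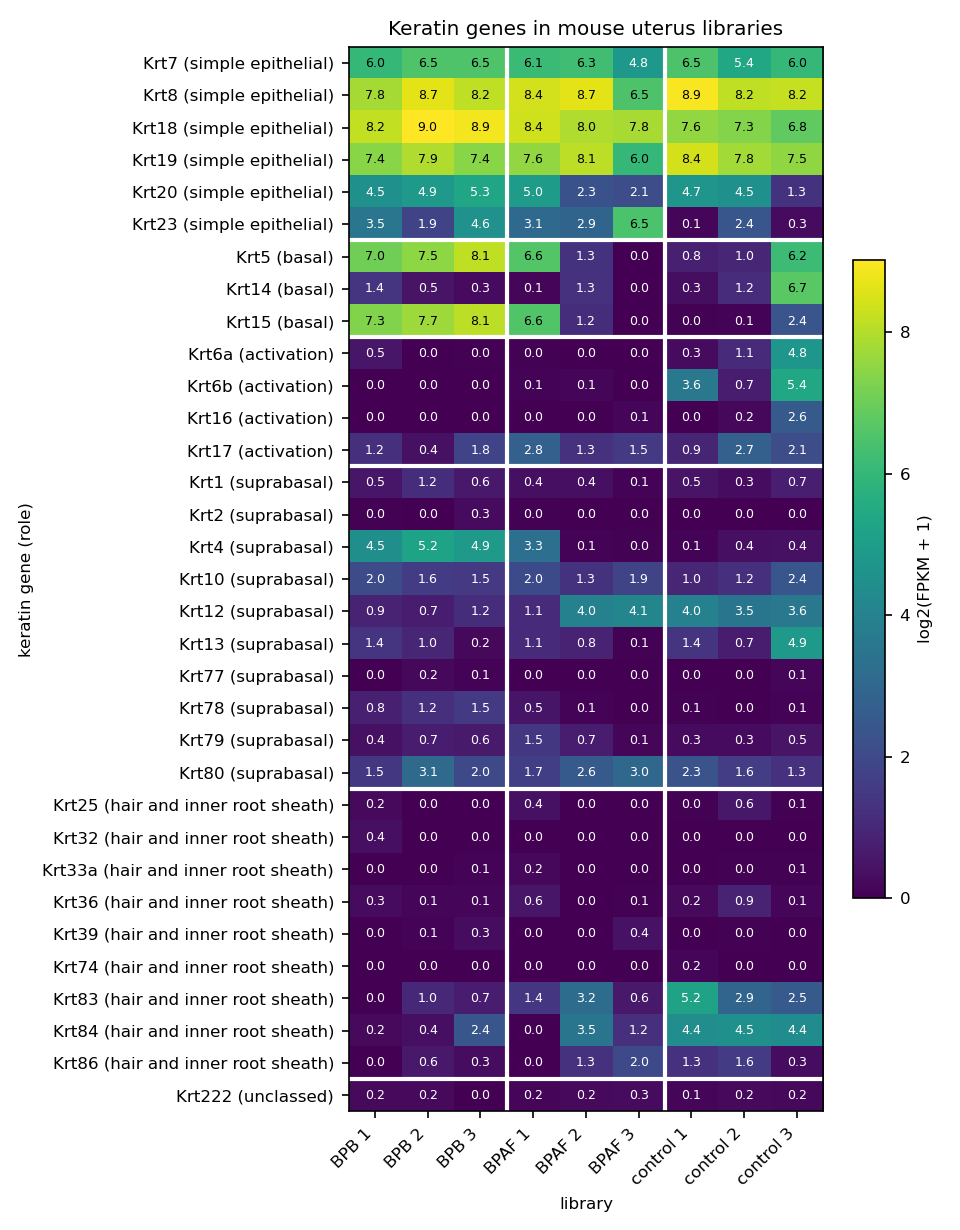
Level of each keratin that reached 0.1 FPKM in some library, as log2(FPKM + 1), with genes by role in rows and the 9 libraries in columns. Krt5 and Krt15 are bright in BPB 1 to 3 and BPAF 1, whereas Krt14, Krt6a, Krt6b and Krt13 are bright in control 3.

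**Figure D2:**
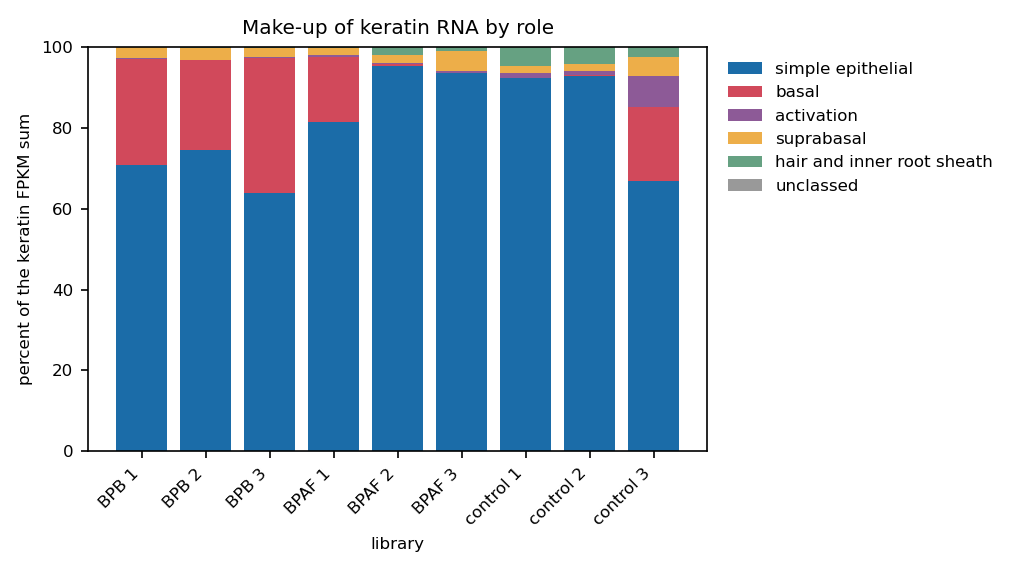
Share of the keratin FPKM sum taken by each role in each library, in percent. The basal share is 22.3% to 33.5% in BPB, 16.1% in BPAF 1 and 18.1% in control 3, and under 0.4% in the other 4 libraries.

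Basal keratins were abundant in 5 libraries, namely BPB 1 to 3, BPAF 1 and control 3, and nearly absent from the other 4. Krt5, Krt14 and Krt15 together made up 26.2%, 22.3% and 33.5% of keratin FPKM in BPB 1, 2 and 3 and 16.1% in BPAF 1, against 0.395% and 0% in BPAF 2 and 3. In the controls they made up 0.0835%, 0.286% and 18.1%. The plot of keratin shares shows this as a single band in 5 of the 9 bars. Which basal keratin filled the band differed between libraries. The urothelial markers were high in the same BPB and BPAF 1 libraries and low in control 3 (6.94 FPKM), and whether the keratin RNA came from the uterus or from tissue beside it was not tested.

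Krt15, a type I keratin of basal cells, had 159, 205 and 281 FPKM in BPB and 93.2, 1.24 and 0 FPKM in BPAF, against 0.0316, 0.0687 and 4.26 FPKM in control. All 3 BPB libraries lay above all controls, and within BPAF 1 library was high. Group means were 215 ± 61.5 FPKM for BPB and 1.45 ± 2.43 FPKM for control (SD over 3 libraries), a log2(FPKM + 1) difference of 6.87 (SE 1.43) that passed the test across all 13743 genes (limma, adjusted p = 0.0443). It was 1 of 2 keratins called among 18 in BPB against control, where 2.55% of all tested genes were called (2.05% higher and 0.502% lower). With each of the 9 libraries left out in turn Krt15 stayed called in 3 fits, those without a BPAF library, and its difference ranged over 6.47 to 7.64. Without BPB 1, 2 or 3 its adjusted p in limma was 0.0863, 0.141 or 0.162, and without control 1, 2 or 3 it was 0.142, 0.101 or 0.0734. The call was also lost with no filter on low values (0.0837), a pseudocount of 0.1 (0.0775) and median-ratio scaling (0.0524).

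Krt5, the type II keratin of basal cells, had 131, 179 and 283 FPKM in BPB and 95.8, 1.50 and 0 FPKM in BPAF, against 0.726, 0.955 and 71.9 FPKM in control. BPB lay above every control, but control 3 reached the order of BPAF 1. The log2 difference of BPB over control was 4.92 (SE 1.77) and did not pass (limma, adjusted p = 0.188). It was not called without control 3 (6.69, limma adjusted p = 0.0956) or without BPAF 1 (4.92, 0.0922). With both left out, an alternative chosen after the values were seen, it was called (6.69, limma adjusted p = 0.000965).

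Krt14, the usual type I partner of Krt5 in epidermis, went another way. It had 1.60, 0.401 and 0.212 FPKM in BPB and 0.0887, 1.44 and 0 FPKM in BPAF, against 0.264, 1.23 and 103 FPKM in control. Control 3 alone was high, with 2277 reads on Krt14 and at most 41 in any other library. The difference of BPB over control was -2.02 on the log2 scale (SE 1.36, limma adjusted p = 0.501). Without control 3 it was -0.03 (limma, adjusted p = 0.982), so the value rests on that library.

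The basal type I keratin RNA found beside that of Krt5 thus differed by library. Which proteins pair, and whether these RNAs share a cell, was not measured. The ratio of Krt5 to Krt15 was 0.826, 0.876 and 1.01 in BPB and 1.03 in BPAF 1, against 16.9 in control 3. That of Krt14 to Krt15 was 0.0101, 0.00196 and 0.000756 in BPB and 0.000952 in BPAF 1, against 24.1 in control 3. Both ratios are of FPKM and were set side by side after the values were seen, so no test is given. Krt5 shares 6.98% of its 50-base words with Krt6a and Krt16 shares 12.4% with Krt14, so a part of their reads may be split by the authors' counting.

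**Figure D3:**
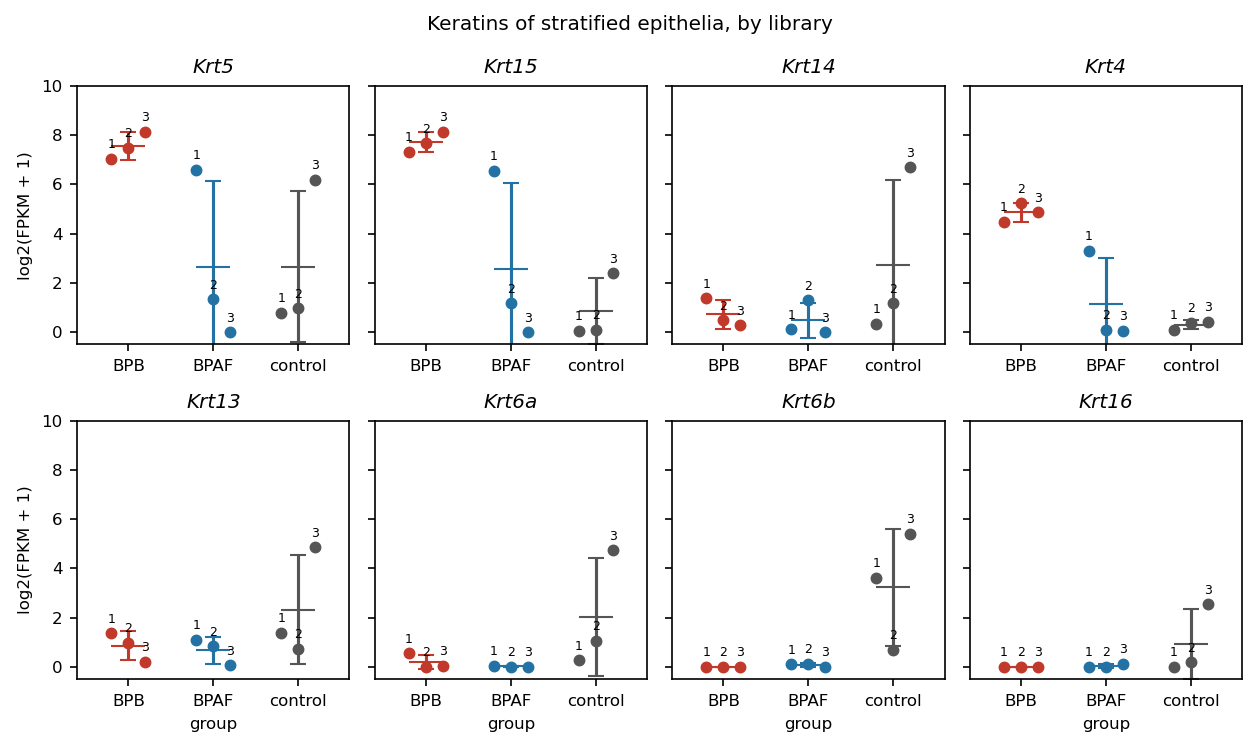
Level of 8 keratins of stratified epithelia as log2(FPKM + 1), 1 point per library with its replicate number, and a bar for the mean with the SD of 3 libraries. Krt5, Krt15 and Krt4 are high in BPB and BPAF 1, and Krt14, Krt13, Krt6a, Krt6b and Krt16 are highest in control 3.

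The start regions of Krt5 and Krt14 are shown because both genes were high in control 3 and only Krt5 in BPB. Each window runs from 250 bases before to 50 after the RefSeq gene start in GRCm38.p6, 5′ to 3′ on the gene's strand, at chr15:101712856-101713155, minus strand, for Krt5 and chr11:100205981-100206280, minus strand, for Krt14. Capitals would mark matches on either strand to 6 motifs, with overlaps counted: TATAAA for the core promoter box of that name, TGANTCA for AP-1 factors, GCCNNNGGC for AP-2 factors, AACCNGTT for Grainyhead-like factors, AGATAA for factors of the Gata family and GGGCGG for Sp and KLF factors. Neither window holds any of these words, so both stand in lower case.
Krt5: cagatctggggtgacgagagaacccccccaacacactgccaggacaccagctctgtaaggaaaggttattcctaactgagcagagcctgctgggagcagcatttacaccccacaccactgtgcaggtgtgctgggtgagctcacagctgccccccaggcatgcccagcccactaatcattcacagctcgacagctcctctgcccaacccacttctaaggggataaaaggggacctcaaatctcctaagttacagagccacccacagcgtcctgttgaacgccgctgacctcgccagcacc
Krt14: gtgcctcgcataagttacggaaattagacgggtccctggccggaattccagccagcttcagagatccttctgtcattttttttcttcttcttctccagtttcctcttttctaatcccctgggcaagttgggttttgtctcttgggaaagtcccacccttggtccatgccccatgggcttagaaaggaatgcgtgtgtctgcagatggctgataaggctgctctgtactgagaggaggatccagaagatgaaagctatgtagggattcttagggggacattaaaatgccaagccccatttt
Among 32851 windows of the same length the shares with a match were 13.6% for TATA, 7.81% for AP-1, 16.6% for AP-2, 2.09% for Grainyhead-like factors, 11.2% for GATA and 35.7% for Sp and KLF factors. RefSeq windows were matched for 35 of the 51 keratins and 11 of the 18 tested ones, by symbol.

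Krt4, a type II keratin of the layers above the basal layer in mucosa, was the other keratin that rose in BPB. It had 21.3, 36.7 and 28.0 FPKM in BPB and 8.89, 0.0643 and 0.0351 FPKM in BPAF, against 0.0622, 0.304 and 0.334 FPKM in control. BPB did not overlap with control, and BPAF 1 lay between them, below BPB. Krt4 reached 1 FPKM in BPB and BPAF 1 alone, so it passed the filter on low values through the libraries where it was high. The log2 difference of BPB over control was 4.56 (SE 0.74, limma adjusted p = 0.0234). Krt4 stayed called without BPB 1 or any BPAF library and was not called without BPB 2 or 3 (limma adjusted p = 0.108 and 0.101) or without control 1, 2 or 3 (0.0931, 0.0539 and 0.0638), nor with a pseudocount of 0.1 (0.0556).

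Krt13, the type I keratin that pairs with Krt4 in mucosa, did not follow it. It had 1.56, 0.975 and 0.151 FPKM in BPB and 1.15, 0.799 and 0.0379 FPKM in BPAF, against 1.61, 0.659 and 28.1 FPKM in control. As with Krt14, control 3 alone was high, and the difference of BPB over control was -1.48 on the log2 scale (limma, adjusted p = 0.454) and -0.21 without control 3 (0.842).

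The activation keratins were high in control 3 too. Krt6a had 0.456, 0 and 0.0331 FPKM in BPB and 0.0346, 0 and 0 FPKM in BPAF, against 0.206, 1.09 and 25.9 FPKM in control. Krt6b had no read in the BPB libraries and 0.0701, 0.0923 and 0 FPKM in BPAF, against 11.3, 0.616 and 41.4 FPKM in control, so that control 1 had it as well. These 2 genes are near copies, with 40.3% of the 50-base words of Krt6a and 44.5% of those of Krt6b in common, so the division of reads between them is uncertain. Krt16 had 96 reads or 4.86 FPKM in control 3 and at most 0.138 FPKM in any other library. None of the 3 reached the level for testing. Krt17, a keratin of hair follicles and wounds, was spread over all groups, with 1.37, 0.330 and 2.50 FPKM in BPB, 5.88, 1.46 and 1.88 FPKM in BPAF, and 0.897, 5.72 and 3.42 FPKM in control (limma, adjusted p = 0.530 for BPB against control).

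Markers of other stratified epithelia were read beside these keratins. Ivl, which encodes involucrin of the cornified envelope, had 120, 107 and 104 FPKM in BPB and 98.3, 0.428 and 0 FPKM in BPAF, against 0, 0.113 and 0.742 FPKM in control. It was thus high in the libraries with Krt15 and low in control 3. Other members of the squamous list went the other way: Tgm1, a transglutaminase of the same envelope, fell in BPB, with 0.440, 0.288 and 0.575 FPKM in BPB and 0.651, 0.418 and 0.480 FPKM in BPAF, against 1.87, 2.23 and 1.76 FPKM in control (-1.04, limma adjusted p = 0.0364). The desmosomal cadherin gene Dsg3, too low for testing, had at most 0.0908 FPKM in BPB and 0.200 FPKM in BPAF, against 0.309 to 1.56 FPKM in control. Both were named after their values were seen. Tgm1 reached 1 FPKM in the controls alone, so it passed the filter through the group where it was high. Its call therefore supports nothing further. Among 9 genes of skin and hair found in the files the sum was 0.686 to 1.90 FPKM in BPB, 0.900 to 1.69 FPKM in BPAF and 0.649 to 1.74 FPKM in control, and Flg2, Hrnr, Lce1a1 and Krtap3-1 were at 0 in all 9 libraries. Of 10 squamous genes with Ivl among them, Sprr1b was at 0 in every library and the sum was 184 to 207 FPKM in BPB, 9.75 to 162 FPKM in BPAF and 52.4 to 101 FPKM in control. Most of the control sum was 1 gene, Sfn, with 97.6, 44.8 and 85.7 FPKM in control. Sfn did not pass in BPB against control (limma, adjusted p = 0.955). The part of other epithelia in the keratin results was not tested.

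The other suprabasal keratins were low. Krt10, known from epidermis, had 1.82 to 3.14 FPKM in BPB, 1.50 to 3.09 FPKM in BPAF and 0.950 to 4.28 FPKM in control, and its partner Krt1 stayed at 1.28 FPKM or less in all libraries. Krt80, a type II keratin found in many differentiating epithelia, had 1.74 to 7.69 FPKM in BPB, 2.20 to 7.16 FPKM in BPAF and 1.43 to 3.96 FPKM in control. Neither Krt10 nor Krt80 passed in BPB against control (limma, adjusted p = 0.869 and 0.711). Krt78, a type II keratin of stratified epithelia, had 0.738, 1.34 and 1.87 FPKM in BPB, 0.431, 0.0598 and 0.0218 FPKM in BPAF, and 0.0386, 0 and 0.0692 FPKM in control, so it was highest in the libraries with Krt4. It did not reach the level for testing. Krt79 had 1.75 FPKM in BPAF 1 and at most 0.621 FPKM elsewhere, while Krt2 and Krt77 stayed at 0.200 FPKM or less.

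The lining keratins Krt7, Krt8, Krt18 and Krt19 made up the bulk of keratin RNA in every library. Together they took 67.8%, 72.8% and 60.2% of keratin FPKM in BPB and 78.3%, 94.4% and 76.7% in BPAF, against 90.3%, 89.3% and 66.8% in control. Krt8, the type II member, had 225, 402 and 285 FPKM in BPB and 339, 403 and 89.3 FPKM in BPAF, against 484, 286 and 300 FPKM in control. The groups overlapped, and neither bisphenol passed against control (limma, adjusted p = 0.887 for BPB and 0.678 for BPAF).

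Krt18, the type I partner of Krt8, was higher in every exposed library than in any control. It had 295, 518 and 467 FPKM in BPB and 325, 247 and 230 FPKM in BPAF, against 187, 161 and 112 FPKM in control. Means were 427 ± 117 FPKM in BPB, 267 ± 51.0 FPKM in BPAF and 153 ± 38.5 FPKM in control (SD, n = 3 each). The log2 difference was 1.46 for BPB (SE 0.33, limma adjusted p = 0.0552) and 0.81 for BPAF (SE 0.33, limma adjusted p = 0.363), neither of which passed. Of all tested genes, 19.5% lay wholly above control in BPB and 14.3% in BPAF.

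The ratio of the 2 partners separated the exposed libraries from the controls. Krt8 over Krt18, as a ratio of FPKM, was 0.763, 0.776 and 0.611 in BPB and 1.04, 1.63 and 0.389 in BPAF, against 2.58, 1.77 and 2.68 in control. Every exposed library lay below every control, with 1972 to 13169 reads behind each value of either gene. The sum of type I over that of type II keratins was likewise 1.50, 1.39 and 1.41 in BPB and 1.26, 1.09 and 3.14 in BPAF, against 0.887, 1.18 and 0.861 in control, with an overlap between BPAF 2 and control 2. The ratios were chosen after the values were seen and carry no test. Exons of Krt8 overlap those of an annotated gene on the opposite strand, as do those of Krt5, Krt7, Krt10, Krt12 and Krt80, so these 6 values are uncertain as long as it is not known whether strand was used in counting.

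The windows around the starts of Krt8 and Krt18 are given since these neighbours on chromosome 15 parted. They lie at chr15:102004293-102004592, minus strand, for Krt8 and chr15:102027966-102028265, plus strand, for Krt18 (RefSeq, GRCm38.p6), and capitals mark matches to the 6 motifs named above.
Krt8: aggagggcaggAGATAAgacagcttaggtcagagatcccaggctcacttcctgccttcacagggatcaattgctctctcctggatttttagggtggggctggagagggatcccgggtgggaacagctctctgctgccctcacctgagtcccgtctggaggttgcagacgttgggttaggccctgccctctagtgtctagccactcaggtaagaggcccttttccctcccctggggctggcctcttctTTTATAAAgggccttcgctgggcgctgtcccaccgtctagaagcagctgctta
Krt18: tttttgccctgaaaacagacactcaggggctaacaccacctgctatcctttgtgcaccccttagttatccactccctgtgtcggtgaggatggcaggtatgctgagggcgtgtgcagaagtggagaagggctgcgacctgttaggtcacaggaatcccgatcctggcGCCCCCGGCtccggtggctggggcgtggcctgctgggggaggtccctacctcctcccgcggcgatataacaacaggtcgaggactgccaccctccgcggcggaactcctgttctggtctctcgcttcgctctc
Krt8 holds 1 AGATAA that begins 239 bases before the start and an overlapping pair of TATA matches at the start itself, on the 2 strands. Krt18 holds 1 AP-2 match, which begins 83 bases before the start. A match is a description of the letters and was not tied to binding of a factor.

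Krt19, a type I keratin of simple epithelia without a tail domain, had 170, 244 and 168 FPKM in BPB and 187, 274 and 62.6 FPKM in BPAF, against 344, 218 and 185 FPKM in control. Krt7, a type II keratin of ducts and glands, had 63.5, 92.0 and 91.7 FPKM in BPB and 69.3, 75.2 and 27.2 FPKM in BPAF, against 89.8, 40.4 and 64.0 FPKM in control. Both overlapped between all groups and did not pass in BPB (limma, adjusted p = 0.809 for Krt19 and 0.711 for Krt7) or in BPAF (0.583 and 0.848). BPAF 3 had the lowest level of Krt7, Krt8 and Krt19. The 8 markers of epithelium in general, Epcam and Cdh1 among them, summed to 349 to 502 FPKM in BPB, 467 to 758 FPKM in BPAF and 380 to 719 FPKM in control, with BPAF 3 at 467 FPKM.

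Krt20, known from umbrella cells of the bladder and from gut lining, did not follow the uroplakins. It had 22.3, 28.7 and 38.3 FPKM in BPB and 30.1, 3.87 and 3.34 FPKM in BPAF, against 25.2, 22.2 and 1.48 FPKM in control. Controls 1 and 2, in which the urothelial markers summed to 2.68 and 5.08 FPKM, thus had about as much Krt20 as BPB 1. The difference of BPB over control was 1.39 on the log2 scale (SE 0.97, limma adjusted p = 0.518). It leans on the low value of control 3, 1.48 FPKM, and the difference without that library is not given here.

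Krt23, a type I keratin of glandular epithelia, varied widely within each group. It had 10.6, 2.62 and 22.7 FPKM in BPB and 7.47, 6.52 and 86.9 FPKM in BPAF, against 0.0847, 4.38 and 0.203 FPKM in control. All BPAF libraries lay above all controls, with a log2 difference of 3.21 (SE 1.05, limma adjusted p = 0.304). BPB overlapped with control, at 2.38 (SE 1.05, limma adjusted p = 0.283). The gland protease gene Prss29 was 5817 FPKM in BPAF 3, 1073 FPKM in BPB 3 and 379 FPKM in control 2, which held the highest Krt23 of their groups, and at most 0.174 FPKM in the other 6 libraries. Its neighbour on the list, Prss28, was high in the same 3 libraries, but other gland genes were not. Cxcl15 had 23.5, 4.15 and 1.47 FPKM in BPB and 10.9, 2.67 and 0.457 FPKM in BPAF, against 0.125 to 0.170 FPKM in control, and Foxa2 had 4.18, 1.12 and 1.27 FPKM in BPB and at least 2.18 FPKM in each BPAF library, against 0.906 to 1.27 FPKM in control. These gland genes, too, were named after their values were seen. The 8 genes of the list summed to 266, 49.5 and 1402 FPKM in BPB and 127, 91.4 and 8172 FPKM in BPAF, against 22.8, 469 and 45.3 FPKM in control. Their part in the Krt23 result was not tested.

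**Figure D4:**
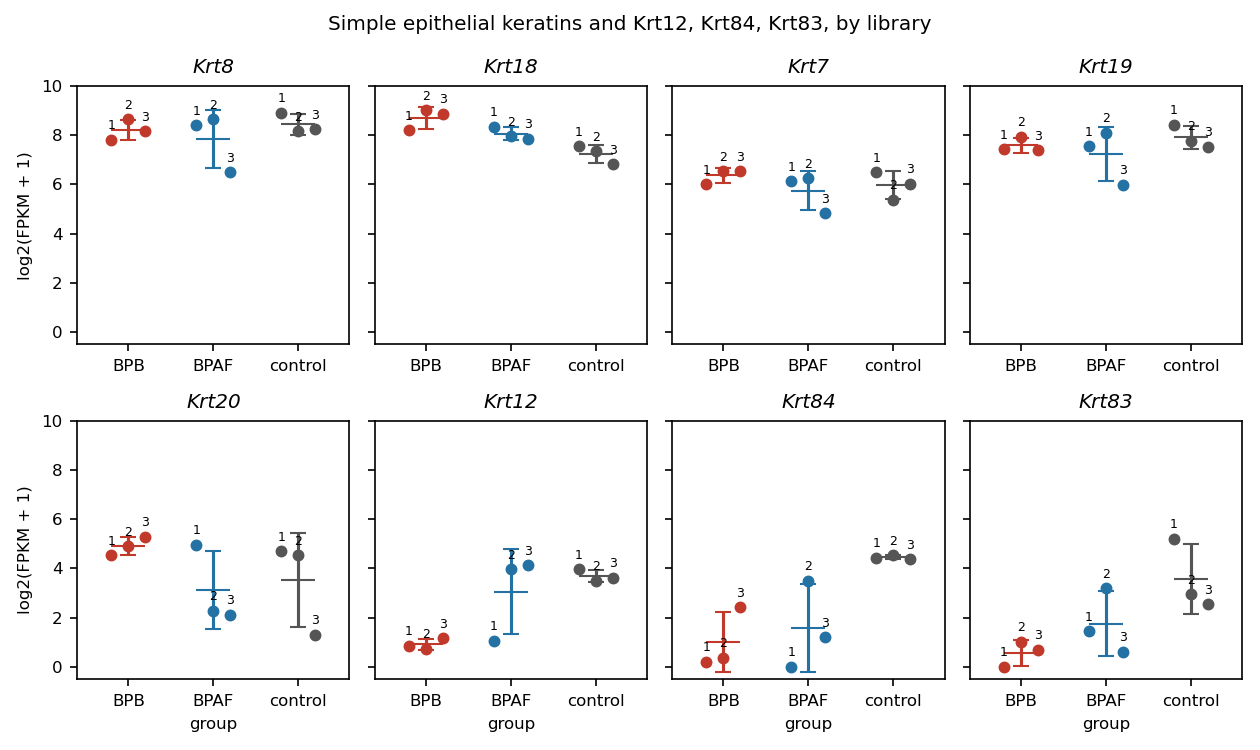
Level of 5 simple epithelial keratins and of Krt12, Krt84 and Krt83 as log2(FPKM + 1), 1 point per library with its replicate number, and a bar for the mean with the SD of 3 libraries. Krt18 is higher in all exposed libraries than in any control, and Krt12 is low in BPB and BPAF 1.

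A further 3 keratins were lower in every BPB library than in any control, as were 6.1% of all tested genes, and none of the 3 passed the test. Krt12, a type I keratin known as the keratin of the cornea, had 0.814, 0.657 and 1.25 FPKM in BPB and 1.09, 14.6 and 16.6 FPKM in BPAF, against 14.5, 10.4 and 11.3 FPKM in control. It was low in the 4 libraries with urothelial markers and between 10.4 and 16.6 FPKM in the other 5. The difference of BPB over control was -2.78 on the log2 scale (SE 0.69, limma adjusted p = 0.0707). Reads on Krt12 numbered 19 to 31 in BPB and 26 in BPAF 1, against 264 to 411 in the other libraries. Fitted without BPAF 1, Krt12 was called in BPB against control (limma, adjusted p = 0.000629, same difference of -2.78), and likewise with only the 6 libraries of that comparison (0.00190).

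The window at the start of Krt12, a keratin that was low in the 4 libraries where Krt15 was high, lies at chr11:99422210-99422509, minus strand (RefSeq, GRCm38.p6).
Krt12: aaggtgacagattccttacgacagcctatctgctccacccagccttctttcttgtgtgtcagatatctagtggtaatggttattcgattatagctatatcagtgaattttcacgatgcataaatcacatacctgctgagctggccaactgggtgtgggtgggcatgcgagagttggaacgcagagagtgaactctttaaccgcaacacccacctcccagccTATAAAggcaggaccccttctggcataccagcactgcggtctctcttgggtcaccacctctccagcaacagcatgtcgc
It holds 1 match among the 6 motifs, a TATAAA in capitals that begins 29 bases before the start.

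Krt84, a type II hair keratin, had 0.160, 0.299 and 4.32 FPKM in BPB and 0, 10.3 and 1.31 FPKM in BPAF, against 20.6, 22.1 and 19.8 FPKM in control. The controls were tight at 20.9 ± 1.16 FPKM (SD, n = 3), and all 6 exposed libraries lay below them. Its log2 difference was -3.45 for BPB (SE 0.83, limma adjusted p = 0.0665) and -2.88 for BPAF (SE 0.83, limma adjusted p = 0.301). In BPB against control it was called without BPAF 1 or BPAF 2 (limma, adjusted p = 0.0390 and 0.0239) and with only the 6 libraries of the comparison (0.0216). Of all tested genes, 6.1% lay wholly below control in BPB and 2.5% in BPAF.

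Krt83, a hair keratin of the same type, had 0, 1.02 and 0.613 FPKM in BPB and 1.71, 8.18 and 0.532 FPKM in BPAF, against 35.9, 6.72 and 4.82 FPKM in control. BPB lay below control, at a log2 difference of -3.00 (SE 0.78, limma adjusted p = 0.0812), and BPAF overlapped with it (-1.81, limma adjusted p = 0.378). Krt86 had 0, 0.523 and 0.228 FPKM in BPB and 0, 1.43 and 2.98 FPKM in BPAF, against 1.45, 1.99 and 0.243 FPKM in control, and did not pass in either. Krt83 shares 18.8% of its 50-base words with Krt86, which leaves their division uncertain. Of the remaining 20 keratins of hair and its root sheath, the highest was Krt36 at 0.863 FPKM in control 2, and Krt25, Krt32, Krt33a, Krt39 and Krt74 reached 0.121 to 0.508 FPKM in some library. Krt222, which has no role class here, stayed at 0.191 FPKM or less.

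Counted over the 18 tested members, BPB against control gave 2 keratins that rose, 0 that fell and 16 that did not pass, by limma. Of all tested genes 2.05% were called higher and 0.502% lower. An unadjusted p under 0.05 was found for 8 of the 18, beside 17.4% of all tested genes. BPB lay wholly above control for 4 of the 18 and wholly below it for 3, where 25.6% of all tested genes were apart, 19.5% higher and 6.1% lower. The median log2 difference of the 18 was -0.02, beside 0.15 for all tested genes. A member that passed the filter on low values through 1 group alone had to differ, so these counts describe the family and support nothing further.

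In BPAF against control 0 of the 18 keratins were called by limma, and 4 had an unadjusted p under 0.05 (Krt84, Krt23, Krt18 and Krt83), beside 12.8% of all tested genes. Of all tested genes 0.0218% were called, 0.00728% higher and 0.0146% lower. BPAF and control were apart for 3 keratins, Krt23 and Krt18 higher and Krt84 lower, beside 16.8% of all genes, 14.3% higher and 2.5% lower. The difference of Krt5 was -0.01 (95% interval -3.99 to 3.97), with BPAF 1 and control 3 both high. It was -1.99 without BPAF 1, 1.76 without control 3 and -0.22 without both. That of Krt15 was 1.73 (95% interval -1.49 to 4.94), and -0.26 without BPAF 1. Such intervals leave room for large differences in either direction. Both comparisons with corn oil share the same 3 controls.

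The 2 bisphenols, given at the same dose by mass and for the same time, were also set against each other. For BPAF against BPB limma called 0 of 18 keratins and 0.24% of all tested genes, and 4 keratins had an unadjusted p under 0.05, as did 6.75% of all tested genes. With the replicate number as a block, in which same-numbered BPAF and BPB libraries are paired, limma called 0 keratins and 0 genes in all. Without the block, the 4 were Krt4 (-3.71, 95% interval -5.38 to -2.04, adjusted p = 0.116 in limma), Krt15 (-5.14, -8.36 to -1.92, 0.304), Krt12 (2.14, 0.59 to 3.68, 0.427) and Krt5 (-4.92, -8.90 to -0.94, 0.510). Apart from the block counts, the differences, intervals and p-values here ignore the pairs. Krt4, Krt15 and Krt5 were lower in every BPAF library than in any BPB library, where 13% of all genes were apart, 6.54% higher and 6.41% lower. Without BPAF 1, Krt15 (-7.13, limma adjusted p = 0.00198), Krt4 (-4.79, limma adjusted p = 0.000192) and Krt12 (3.13, limma adjusted p = 0.000766) were called, and Krt5 was not. In that fit 234 of 13743 tested genes were called, 229 of them lower in BPAF. For the lining keratins the difference of BPAF over BPB was -0.36 for Krt8 (95% interval -1.60 to 0.88), -0.65 for Krt18 (-1.40 to 0.10), -0.63 for Krt7 (-1.61 to 0.36) and -0.37 for Krt19 (-1.53 to 0.79).

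**Figure D5:**
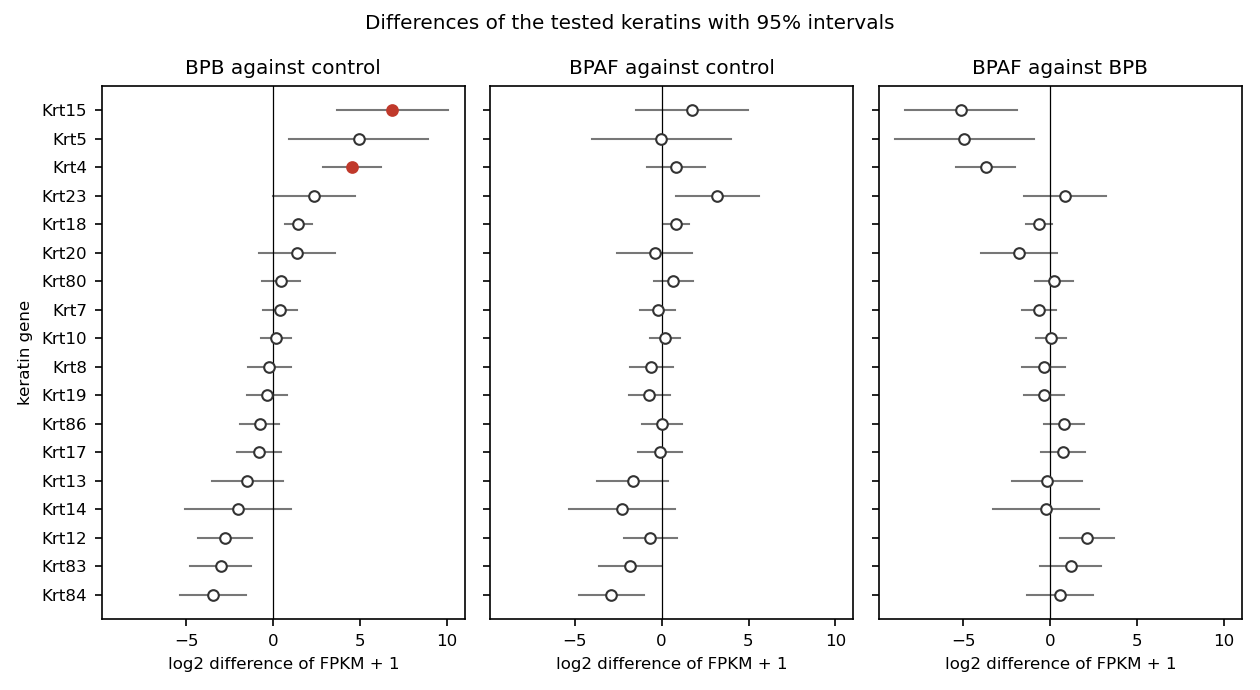
Difference in log2(FPKM + 1) of the 18 tested keratins in the 3 comparisons, first group minus second, with 95% intervals from limma without a block and filled points for an adjusted p under 0.05. Krt15 and Krt4 are filled in BPB against control, and no point is filled in the other panels.

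Genes that work with keratins were read from lists of regulators, junctions and other filaments. Of 11 tested regulators of keratin genes 2 rose in BPB and 0 fell, where 2.05% of all tested genes were called higher and 0.502% lower, and their median log2 difference was 0.72, beside 0.15 for all tested genes. Trp63, the p63 factor of basal cells, had 3.99, 7.23 and 9.02 FPKM in BPB and 3.29, 0.125 and 0.107 FPKM in BPAF, against 0.0685, 0.0746 and 0.435 FPKM in control (limma, adjusted p = 0.0352). It was high in the libraries with Krt15, and in control 3, with 103 FPKM of Krt14, it was 0.435 FPKM. Trp63 reached 1 FPKM in BPB and BPAF 1 alone, so it passed the filter through the libraries where it was high. Its call and the count above therefore describe the list and support nothing further. Grhl3, a Grainyhead-like factor of barrier epithelia, had 14.0, 30.9 and 30.4 FPKM in BPB and 12.0, 0.835 and 0 FPKM in BPAF, against 0.927, 0 and 1.65 FPKM in control (limma, adjusted p = 0.0481). Trp63 was not called without BPB 2 or 3 or any control (limma adjusted p = 0.0737 to 0.147), nor Grhl3 without any BPB or control library or BPAF 2 (0.0532 to 0.175). With no filter on low values and with a pseudocount of 0.1 both calls were lost too (limma adjusted p = 0.0665 and 0.0626 for Trp63, 0.0881 and 0.120 for Grhl3), and that of Grhl3 also at 5 FPKM or more (0.0550) and under median-ratio scaling (0.0589).

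Filaments are anchored by hemidesmosomes to the basement membrane and by desmosomes to the next cell. In BPB against control 2.05% of all tested genes were called higher and 0.502% lower. Among 9 hemidesmosome genes Col17a1, a collagen that spans the basal membrane, rose in BPB and 0 fell. It had 2.89, 9.08 and 7.85 FPKM in BPB and 1.81, 0.315 and 0.107 FPKM in BPAF, against 0.326, 0.229 and 0.767 FPKM in control (limma, adjusted p = 0.0353), and the median of the list was -0.07, beside 0.15 for all tested genes. Without BPB 2, BPB 3 or any control it was not called (limma adjusted p = 0.0726 to 0.148), nor with no filter on low values (0.0657) or a pseudocount of 0.1 (0.0659). Col17a1 reached 1 FPKM in BPB and BPAF 1 alone, so it passed the filter through the libraries where it was high. Of 9 tested desmosome genes 0 passed by limma and 3 had an unadjusted p under 0.05, where 2.55% and 17.4% of all tested genes did, with a median of 0.08 beside 0.15. The smallest p was that of Ppl, periplakin, with 13.2, 21.4 and 27.2 FPKM in BPB and 9.56, 7.93 and 16.8 FPKM in BPAF, against 9.05, 3.45 and 4.28 FPKM in control (limma, adjusted p = 0.0575).

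Among 12 other intermediate filament genes Synm rose in BPB, 0 fell and the median was 0.07, beside 0.15 for all tested genes. Of all tested genes 2.05% were called higher in BPB and 0.502% lower. Synm, a filament protein of muscle, had 41.5, 87.5 and 103 FPKM in BPB and 7.36, 4.69 and 5.47 FPKM in BPAF, against 8.09, 12.3 and 3.41 FPKM in control. It was higher in BPB than in control (limma, adjusted p = 0.0183) and lower in BPAF than in BPB (limma, adjusted p = 0.0414), and unlike the basal keratins it was not high in BPAF 1. The first call was lost without BPB 2, BPB 3 or control 1 (limma adjusted p = 0.0873 to 0.0928) and the second without any library but BPB 1 or BPAF 1 (0.0608 to 0.204). The second was lost as well with the replicate number as a block, over 9 libraries (limma adjusted p = 0.181) or the 6 of BPAF and BPB (0.234), with no filter (0.0643), at 5 FPKM or more (0.0700), with a pseudocount of 0.1 (0.133) and with those 6 libraries alone (0.144). The 6 smooth muscle markers summed to 6922 to 10954 FPKM in BPB, 941 to 3191 FPKM in BPAF and 3369 to 5110 FPKM in control, and their part in the Synm result was not tested. In BPAF against control limma called 0 genes of these 4 lists, with 11, 9, 9 and 12 genes tested, beside 0.0218% of all tested genes. An unadjusted p under 0.05 was found for 5 of the listed genes, beside 12.8% of all tested genes.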

How the data were processed

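The deposited tables, 1 for each uterus library, pair gene symbols with values whose unit the headers do not name. They were taken as FPKM made by the authors, since 84.7% to 86.7% of the values of single-transcript genes, times their length (GENCODE M21), came within 0.01 of a whole number of equal steps. The step gave the library totals. Reads were recovered for 42 keratins, 18 of them at an annotated transcript length. For the others the length was the union of exons or a whole number found by search, as for Krt7 (8594 bases). Their read numbers, and the share of keratin reads in a library, depend on that length. Keratin shares, sums and ratios of FPKM between genes depend on the lengths that the authors used, which were not given. The library kit kept strand, per the labels' protocols. Aligner, counter, genome build and annotation: not given in the sources used here.

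Groups came from the sample titles. Of 34745 lines, 126 with repeated symbols were left out, and 13743 genes that reached 1 FPKM in at least 3 libraries were tested. Limma 3.58.1 in R 4.3.3, with trend and robust estimation, was fitted to log2(FPKM + 1) over all 9 libraries, two-sided, with Benjamini-Hochberg adjustment over all tested genes and a threshold of 0.05. Such differences understate changes of low genes. The method was run on simulated data with independent noise and no outlying library, so that run says nothing about libraries such as BPAF 1 or control 3. Alternatives were other filters, a pseudocount of 0.1, median-ratio scaling, the 6 libraries of a comparison, the replicate number as a block, and each library left out. Every keratin past the filter was named, and of each companion list up to 4 called genes or the 1 with the smallest p. The keratins, lists and rules were chosen with earlier results of these data known. Role classes rest on general knowledge of keratins. Equal replicate numbers are not said to mark a shared litter or batch. The deviations of same-numbered BPAF and BPB libraries from their group means correlated at 0.34 to 0.48 in 3 of 3 pairs. Pairs were therefore also fitted in BPAF against BPB, taken from the data and not from the labels. The differences, intervals and p-values printed for that comparison ignore these pairs unless a block is named. Same-numbered libraries of a bisphenol and control correlated below 0 in all 6 pairs and were not taken as pairs. Unlike-numbered libraries correlated at -0.337 to -0.0721 between BPAF and BPB. Between a bisphenol and control they reached -0.233 to 0.448, the highest for BPB 1 with control 3. A high correlation was thus not confined to equal numbers.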

Additional observations from a re-analysis of the deposited data

How the results depend on the processing

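Counts of called genes moved with most settings, while the directions of the called keratins did not. Against the 2 keratins of BPB against control, 1 (Krt4) was called with no filter on low values, 0 with a pseudocount of 0.1, 1 (Krt4) with median-ratio scaling, 4 with only the 6 libraries of the comparison, and 0 to 4 with a library left out. Without both control 3 and BPAF 1, chosen after the values were seen, it was 4. For all genes, the 351 calls became 163 with no filter, 151 at 5 FPKM or more, 152 with a pseudocount of 0.1, and 1 to 427 with a library left out. Under median-ratio scaling the all-gene median of this comparison was -0.06 in place of 0.15, and 64.9% in place of 80.3% of the calls were higher. In BPAF against control the keratin count was 0 in every setting. The 3 genes called in all became 0 at 5 FPKM or more, 0 with the 6 libraries alone, 0 without control 3 and BPAF 1, and 1 to 10 with a library left out. In BPAF against BPB the keratin count was 0 to 3 with a library left out and 5 without control 3 and BPAF 1, and 0 in the other settings. The 33 genes called in all became 11 with no filter, 0 at 5 FPKM or more, 0 with a pseudocount of 0.1, 0 with the 6 libraries alone, 227 without control 3 and BPAF 1, and 0 to 234 with a library left out. The cause of these changes was not tested. Over 864 keratin differences in other settings, 45 changed sign, none of them a called one, and 17 lost and 15 gained a call. Krt10 changed sign under median-ratio scaling in each comparison.

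With the replicate number as a block, the calls fell to 19 genes and 0 keratins in BPB against control, to 0 genes and 0 keratins in BPAF against control, and to 0 genes and 0 keratins in BPAF against BPB, also with the block in the 6 libraries of that comparison alone, added after the values were seen. In BPB against control the block took the calls of Krt15 (adjusted p = 0.0875 in limma), Krt4 (0.0574), Trp63 (0.0796), Grhl3 (0.0927), Col17a1 (0.0875) and Synm (0.0562). Same-numbered libraries deviated together in the 3 pairs of BPAF and BPB (0.34 to 0.48) and not in the 6 pairs with control (-0.40 to -0.08), and 5 of 9 libraries correlated best with their own number. Depth limits keratins under about 1 FPKM, where a value rests on few reads.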
